A study of Mus musculus with 4 samples.

Results

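The *H2-M* genes described here are the 9 nonclassical major histocompatibility complex (MHC) class I genes *H2-M1*, *H2-M9*, *H2-M10.1* to *H2-M10.6* and *H2-M11*. They were chosen by gene symbol, with the difference between aged and young adult mice in these same arrays already known. Their levels, detection and differences are therefore given as a description, without a test. The array carried 10 probes for these 9 genes, 2 of them for *H2-M10.1*, among 56605 probes in all, and 45604 genes had a value in every sample.

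Classical class I molecules present peptides to T cells on the surface of almost every cell. The *H2-M* genes of this group instead encode class I heavy chains that are known from the vomeronasal organ, a chemosensory tube that lies along the base of the nasal septum. There they are transcribed in neurons of the basal layer, which carry type 2 vomeronasal receptors (V2Rs) and signal through the G protein subunit Gαo. The neurons of the apical layer carry type 1 receptors (V1Rs) and signal through Gαi2. Different basal neurons transcribe different combinations of the *H2-M* genes, and deletion of the cluster is known to lower the sensitivity of these neurons to their ligands.

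Total RNA from the septal nasal mucosa of C57BL/6 mice labelled male (C57BL/6J in the strain label) was compared between young adult mice of 8 weeks and aged mice of 16 months. Neither group carried a transgene or received a treatment, and the sample labels call the tissue olfactory epithelium. Each array was hybridised with 1 RNA pool of 5 mice, with 2 pools per age. The mice that the study's methods set aside for gene analyses at each age are too few to fill 2 pools of 5 without overlap, so the pools of an age may share mice. The errors and P values below measure the spread between 2 pools, not between animals, and this spread may be too small.

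Of the spots on an array, 63.1% to 76.8% were well above background, a detection flag that the scanner software sets for each spot, and no spot was saturated. Correlations over all genes were 0.987 within each age and 0.982 to 0.989 between ages. Young adult array 1 and aged array 1 shared a slide, and the other two arrays each had a slide of their own. *Xist*, the noncoding RNA that silences an X chromosome in female cells, gave normalized intensities of 645 and 612 in young adult mice and 644 and 637 in aged mice. Of 11 probes for 8 Y chromosome genes, *Eif2s3y* among them, 1 (that of *Sry*) was well above background, on a single array, so the labelled sex was at odds with the arrays at both ages. All 9 markers of mature olfactory receptor neurons (ORNs) were well above background on all 4 arrays. Of the measured vomeronasal receptors, 7 of 90 V2Rs and 14 of 168 V1Rs were.

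The promoter regions are shown first because they hold the sequence relation among the 9 genes. RefSeq windows of 300 bases, 250 before and 50 after the annotated start, were found for 9 of 9 genes on mouse build GRCm38.p6, all on chromosome 17. The 150 bases before the start of 5 genes are printed 5′ to 3′ on the strand of the gene. These are the 3 genes whose mean aged level was at least 2 times the mean young adult level, with *H2-M10.5* and *H2-M11*. The window of *H2-M10.5* was the nearest to that of *H2-M10.3*. Capitals mark 3 motifs, the Y-box letters CCAATCA, the cyclic AMP response element (CRE) type letters ACGTCA and the TATA letters TATAAA. The regions are chr17:36368418-36368567 (minus strand) for *H2-M10.3*, chr17:36772760-36772909 (plus strand) for *H2-M10.5*, chr17:36286422-36286571 (minus strand) for *H2-M10.2*, chr17:36812025-36812174 (plus strand) for *H2-M10.6* and chr17:36546925-36547074 (plus strand) for *H2-M11*.
H2-M10.3: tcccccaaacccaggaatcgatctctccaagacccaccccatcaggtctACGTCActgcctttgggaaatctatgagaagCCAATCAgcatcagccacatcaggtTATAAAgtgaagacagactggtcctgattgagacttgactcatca
H2-M10.5: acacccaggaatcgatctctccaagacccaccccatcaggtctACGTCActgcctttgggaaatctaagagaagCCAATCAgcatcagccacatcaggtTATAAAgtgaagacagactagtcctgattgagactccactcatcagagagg
H2-M10.2: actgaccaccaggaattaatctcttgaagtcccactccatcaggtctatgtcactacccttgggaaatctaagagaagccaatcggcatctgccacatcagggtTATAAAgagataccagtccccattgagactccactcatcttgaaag
H2-M10.6: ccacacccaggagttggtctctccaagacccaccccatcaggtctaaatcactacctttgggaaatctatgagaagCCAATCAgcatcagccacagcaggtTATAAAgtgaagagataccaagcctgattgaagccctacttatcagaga
H2-M11: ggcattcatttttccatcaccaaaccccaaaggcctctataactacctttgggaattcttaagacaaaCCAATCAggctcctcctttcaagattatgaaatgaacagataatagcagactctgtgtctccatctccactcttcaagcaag

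The 6 *H2-M10* windows were the most alike, with 76.7% to 92.7% identical bases over 15 pairs. *H2-M10.3* and *H2-M10.5* formed the pair with 92.7%, and *H2-M10.2* differed most from the others within this group. *H2-M1* and *H2-M9* shared 86.7% of bases, and the other 20 pairs, those of *H2-M11* among them, shared 63.3% to 71.7%. All motifs were searched on both strands. CCAATCA, the Y-box type letters bound by NF-Y in MHC promoters, was found in 8 of the 9 windows and in 7.82% of 32851 mouse promoter windows of the same length, with *H2-M10.2* as the exception. ACGTCA was found in 4 windows, those of *H2-M10.1*, *H2-M10.3*, *H2-M10.4* and *H2-M10.5*, and in 7.51% of all windows. TATAAA was found in 7 windows, all but those of *H2-M10.1* and *H2-M11*, and in 13.6% of all windows. In *H2-M10.4* the TATA letters lay on both strands and overlapped each other, and no 2 different motifs overlapped in the 9 windows. The letters GGGANNTCC, a κB type that classical class I promoters carry, were found in *H2-M10.6* alone, against 4.3% of all windows. The letters TTCNNTTTC, an interferon response type, were in none of the 9 windows and in 8.56% of all windows. A match describes letters and not a bound site. At 6 of the 9 annotated starts the first bases were ATG, so these windows may be counted from a coding start.

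**Figure D1:**
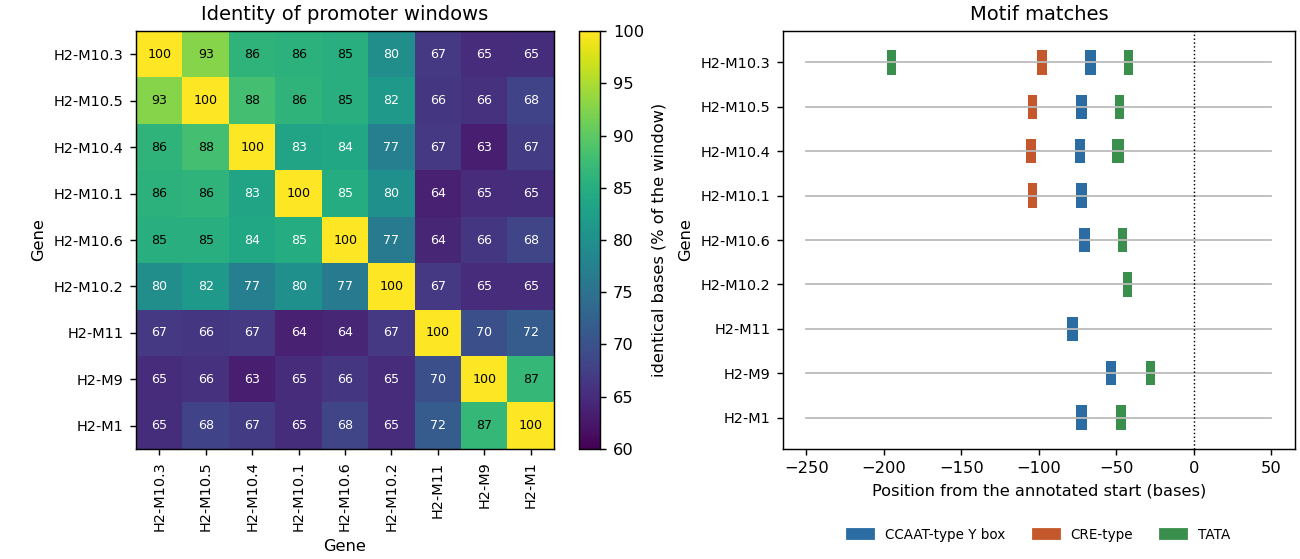
Left, identical bases between the promoter windows of each pair of *H2-M* genes, as a percentage of the window of 300 bases. Right, positions of 3 motifs, in bases from the annotated start (dotted line), with 1 line per gene. The 6 *H2-M10* genes form the block with 76.7% to 92.7% identity, and the Y-box letters are marked in every gene but *H2-M10.2*.

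In the nasal mucosa, 3 of the 9 genes (*H2-M10.3*, *H2-M10.6* and *H2-M11*) were well above background on all 4 arrays, against 58.6% of all genes. *H2-M10.2* was well above background on 3 arrays and *H2-M9* on 1 array. *H2-M1*, *H2-M10.1*, *H2-M10.4* and *H2-M10.5* passed this flag on no array. In 4 of the 9 genes (*H2-M10.3*, *H2-M10.6*, *H2-M10.2* and *H2-M1*) both aged samples were higher than both young adult samples, a separation that 24.2% of all genes showed. In 0 of the 9 genes were both aged samples lower, against 21.8% of all genes. Because the same contrast chose the family, nothing is read from these counts. In bulk mucosa, a change in the number of cells that transcribe a gene and a change in its RNA per cell cannot be told apart.

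*H2-M10.3*, a member of the group whose proteins are known from the dendrites of V2R neurons, had normalized intensities of 686 and 682 in young adult mice and 2183 and 2357 in aged mice. Both aged samples lay far above both young adult samples, and the pools of each age differed little. The mean was 684 ± 3.08 (SD, n = 2) in young adult mice and 2270 ± 123 (SD, n = 2) in aged mice, a difference of 1.73 on the log2 scale or 3.31-fold. The arrays on the shared slide gave a difference of 1.67 and the other pair of arrays 1.79. The spot signals before any correction were 786 and 677.5 in young adult mice and 2130 and 2323 in aged mice, with local backgrounds of 31 to 58, so the difference was present in the signals as scanned. Across 16 alternative settings of background correction, scaling, probe choice and samples, the difference was 1.66 to 1.79.

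*H2-M10.6* had normalized intensities of 68.8 and 61.0 in young adult mice and 136 and 177 in aged mice. The groups did not overlap, and aged array 2 was the highest. The means were 64.9 ± 5.49 and 157 ± 28.9 (SD, n = 2 each), a log2 difference of 1.26 or 2.40-fold. It was 0.98 on the shared slide and 1.54 between the other two arrays. The spots were dim, with signals of 83 to 189 over local backgrounds of 33 to 67, and the difference moved with the background correction, from 0.84 (normexp offset of 50) to 1.64 (the processed signal, quantile normalized).

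*H2-M10.2* had normalized intensities of 49.5 and 42.7 in young adult mice and 97.7 and 177 in aged mice. Young adult array 1, with a local background of 46, was not well above background. Young adult array 2 was, at a lower value over a local background of 26. Both aged arrays were well above background. The aged samples were higher than the young adult samples but lay far apart from each other, at 137 ± 56.1 against 46.1 ± 4.82 (SD, n = 2 each). The log2 difference was 1.51 or 2.86-fold, with 0.98 on the shared slide and 2.05 between the other two arrays. Over the alternative settings it was 0.93 (offset of 50) to 3.42 (processed signal, quantile normalized), or 1.90-fold to 10.7-fold. The direction of *H2-M10.2* held in 16 of 16, several of which could hardly change it. The size of its difference is therefore known less well than that of *H2-M10.3*.

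*H2-M11*, which lies within the cluster but outside the *H2-M10* group, had normalized intensities of 390 and 373 in young adult mice and 438 and 326 in aged mice. The aged samples lay on either side of the young adult samples, so the groups overlapped. The mean was 382 at both ages, with SDs of 12.2 and 79.3 (n = 2 each) and a log2 difference of -0.02. The sign of this difference varied with the samples, from -0.23 without aged replicate 1 to 0.20 without aged replicate 2. Within the same arrays, the log2 difference of *H2-M10.3* exceeded that of *H2-M11* by 1.74, with 1.5 on the shared slide and 1.99 between the other two arrays. The excess was 1.28 for *H2-M10.6*, with 0.82 on the shared slide and 1.73 between the other two arrays. It was 1.53 for *H2-M10.2*, with 0.81 and 2.25, so the excess of both genes differed between the pairs of arrays more than that of *H2-M10.3*.

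**Figure D2:**
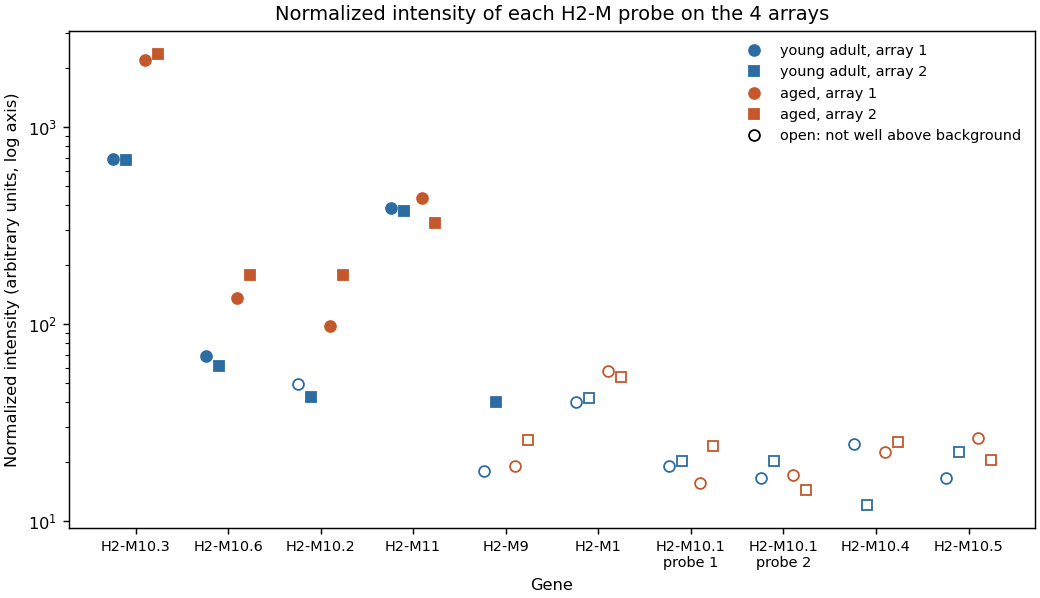
Normalized intensity (log axis, arbitrary units) of the 10 *H2-M* probes on each of the 4 arrays. Each point is 1 pool of 5 mice, and open points were not well above background. The aged points of *H2-M10.3*, *H2-M10.6* and *H2-M10.2* lie above the young adult points, and those of *H2-M11* lie on either side of them.

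The other 5 genes were at or near background. *H2-M9* had normalized intensities of 18.0 and 40.2 in young adult mice and 18.99 and 25.9 in aged mice, and only young adult array 2 was well above background, so no fold is given. *H2-M1* had 40.4 and 42.1 in young adult mice and 57.5 and 54.2 in aged mice, all without passing the detection flag. The aged values of *H2-M1* were higher in both samples, with a log2 difference of 0.44 between spots that were not detected. *H2-M10.4* had 24.7 and 12.1 against 22.3 and 25.3, and *H2-M10.5* had 16.5 and 22.5 against 26.3 and 20.4. In both of these genes the groups overlapped. The 2 probes of *H2-M10.1* had 14.3 to 24.2 over all arrays, with log2 differences of -0.01 and -0.22, and the groups overlapped for both probes. *H2-M10.5*, whose promoter window was 92.7% identical to that of *H2-M10.3*, was thus not detected in either age. Probe sequences were not used here, and whether a probe for one *H2-M10* gene also binds transcripts of another was not tested.

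Among the 26727 genes that were well above background on all 4 arrays, 139 (0.52%) were at least 2 times higher in aged mice, and *H2-M10.3* and *H2-M10.6* were among them. Of these genes, 25 (0.0935%) were at least 3 times higher, *H2-M10.3* included. The median log2 difference over the 9 *H2-M* genes was 0.44, against 0.01 over all genes. This median falls on the undetected *H2-M1*, and it was 0.12 to 0.58 over the settings tried. Because the same contrast chose the family, nothing is read from these shares or from the median.

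**Figure D3:**
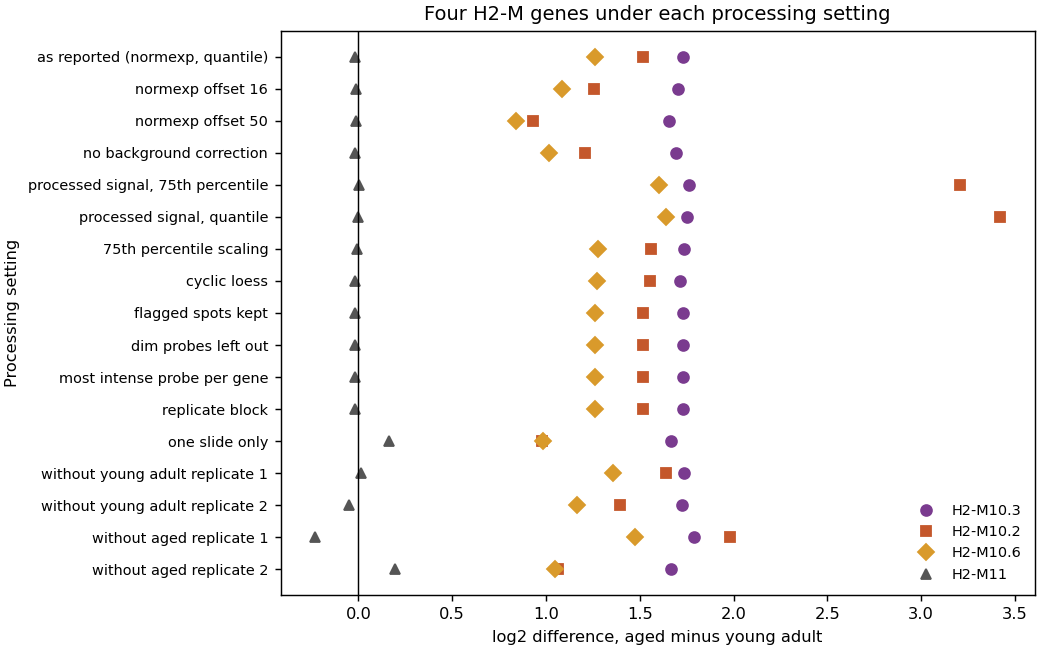
Log2 difference between aged and young adult mice for 4 *H2-M* genes under the reported processing (top) and 16 alternatives, with 1 point per gene and setting. *H2-M10.3* stays between 1.66 and 1.79, *H2-M10.2* ranges from 0.93 to 3.42, *H2-M10.6* from 0.84 to 1.64, and *H2-M11* lies on either side of 0.

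The genes that accompany *H2-M* transcripts in vomeronasal neurons were measured on the same arrays and compared by limma, and a gene was called at an unadjusted P under 0.05 and an FDR under 0.25 over all genes. At this threshold, 1.65% of the 45604 genes were higher and 2.33% were lower in aged mice. At an unadjusted P under 0.05 alone, 2760 of the 45604 genes were higher and 3230 were lower. The list counts at this limit below are to be read beside these. Of 90 V2Rs, the receptors of the basal neurons, 0 were higher and 1 was lower, with 1 higher and 4 lower at an unadjusted P under 0.05. The lower gene, *Vmn2r54*, had normalized intensities of 26.0 and 25.3 against 14.2 and 10.8 (log2 difference -1.05, FDR = 0.221), and it passed the detection flag on no array. The 7 V2Rs that were well above background on all arrays had log2 differences of -0.17 to 0.28, with 0 called. Of all genes detected in this way, 2.11% were called higher and 3.07% lower. *Vmn2r29* and *Vmn2r35*, with the highest mean levels among the V2Rs, had differences of -0.17 (FDR = 0.824) and 0.14 (FDR = 0.545). *Vmn2r56*, the next, had 75.8 and 349 in young adult mice and 55.4 and 53.2 in aged mice, so its difference of -1.58 (FDR = 0.539) rested largely on young adult array 2. The summed intensity of the 90 V2Rs was 3292 and 3312 in young adult mice and 3101 and 2818 in aged mice. Without *Vmn2r56* the sums were 3216 and 2963 against 3046 and 2765, and the groups overlapped. The 7 V2Rs that were well above background on all arrays summed to 754 and 757 in young adult mice and 812 and 781 in aged mice, with a median log2 difference of 0.12 and 5 of 7 above 0. With any 1 array left out limma called 0 of all genes, so those fits do not bear on any single list.

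Of 168 V1Rs, the receptors of the apical neurons, 3 were higher and 2 were lower in aged mice, but none of the 14 that were well above background on all arrays was called. *Vmn1r28* (0.97, FDR = 0.242), *Vmn1r69* (0.79, FDR = 0.249) and *Vmn1r78* (0.73, FDR = 0.208) were higher, and *Vmn1r16* (-0.91, FDR = 0.191) was lower. *Vmn1r28* was well above background on 2 arrays and the other 3 on none. At an unadjusted P under 0.05, 5 of the 168 V1Rs were higher and 9 were lower. The 14 detected V1Rs had log2 differences of -0.94 to 0.32, with both aged samples lower in 5 and higher in 0. Among all genes so detected, 25.6% had both lower and 31.6% both higher. The V1Rs with the highest levels, *Vmn1r46* (0.04, FDR = 0.855), *Vmn1r70* (-0.04, FDR = 0.937) and *Vmn1r217* (-0.63, FDR = 0.518), did not pass the test. Summed over the 168 V1Rs, the intensity was 7083 and 8618 in young adult mice and 7939 and 7072 in aged mice, and the groups overlapped. The 4 vomeronasal formyl peptide receptors, a further receptor class of this organ, gave 0 calls by limma and 0 at an unadjusted P under 0.05, and none was well above background on all arrays. The 3 with the highest levels, *Fpr3* (-0.43, FDR = 0.649), *Fpr-rs6* (-0.70, FDR = 0.728) and *Fpr-rs3* (-0.40, FDR = 0.805), were each well above background on 1 array.

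Of 7 measured transduction genes of vomeronasal neurons, 0 passed the threshold of limma, with 0 higher and 3 lower at an unadjusted P under 0.05. *Gnao1*, which encodes Gαo of the basal neurons, had a log2 difference of 0.09 (FDR = 0.688). *Gnai2*, which encodes Gαi2 of the apical neurons and is also transcribed in many other cells, had a difference of -0.34 (FDR = 0.291). The chloride channel genes *Ano1* (-0.16, FDR = 0.582) and *Ano2* (0.38, FDR = 0.469) did not pass the test either. *Gng8*, which encodes a G protein γ subunit of vomeronasal and immature olfactory neurons (-0.34, FDR = 0.297), and *Kcnn3*, which encodes a calcium-activated potassium channel (-0.37, FDR = 0.325), did not pass the threshold. Of the 6 transduction genes detected on all 4 arrays, both aged samples were lower in 4 (*Gnai2*, *Gng8*, *Ano1* and *Kcnn3*) and higher in 2 (*Gnao1* and *Ano2*). Among all genes so detected, 25.6% had both lower and 31.6% both higher. *Trpc2*, the defining cation channel of these neurons, was not matched to a probe here. Of the factors that mark the neuron layers, *Tfap2e*, a transcription factor of the basal neurons, was well above background on 1 array, with 8.49 and 48.4 in young adult mice and 20.6 and 11.8 in aged mice. *Meis2* (0.14, FDR = 0.604) and *Bcl11b* (0.14, FDR = 0.610) did not pass the test, and 0 of the 3 factors did at an unadjusted P under 0.05. In bulk mucosa, the levels of these transduction genes and factors cannot be assigned to vomeronasal neurons.

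*Lcn3*, *Lcn4* and *Mup4* encode lipocalins that glands of the vomeronasal organ and nasal mucosa secrete, and all were well above background on all 4 arrays. *Lcn4* was lower in aged mice (log2 difference -0.63, FDR = 0.203), whereas *Lcn3* (-0.31, FDR = 0.291) and *Mup4* (-0.04, FDR = 0.850) did not pass the test. *Mup4* had 438727 and 438725 in young adult mice and 413622 and 438726 in aged mice. Quantile normalization sets a value by its rank, so these near-equal values leave little room to show a change. The summed intensity of the lipocalins, with *Mup4* as the largest part, was 973393 and 953562 in young adult mice and 798691 and 821731 in aged mice. Of the 9 markers of mature ORNs, *Stoml3*, a stomatin family gene of olfactory cilia, was higher in aged mice (0.43, FDR = 0.244), and *Omp*, which encodes olfactory marker protein, had a difference of 0.15 (FDR = 0.549). *Gnal*, which encodes the olfactory G protein subunit, had 0.05 (FDR = 0.810). The summed intensity of the mature ORN markers was 459542 and 449996 in young adult mice and 499942 and 510641 in aged mice. This sum was higher in both aged samples, with *Omp* as its largest part. In all 9 markers both aged samples were higher, against 31.6% of all genes detected on all 4 arrays. Of 5 markers of immature ORNs, 1 was lower (*Dpysl3*, -0.40, FDR = 0.247), with a sum of 45265 and 43647 against 36787 and 36082. *Gap43* (-0.41, FDR = 0.251) and *Stmn2* (-0.25, FDR = 0.379), which encode growth cone and microtubule proteins, did not pass the test. Of 8 leukocyte markers, 1 was lower (*Cd68*, a macrophage marker, -0.78, FDR = 0.201), with a sum of 3709 and 4465 against 3366 and 3550. *Itgam* (-0.01, FDR = 0.983) and *Cd4* (-0.28, FDR = 0.749) did not pass the test. The part of these cell types in the *H2-M10* difference was not tested.

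Classical class I heavy chains need β2-microglobulin and a loading machinery to reach the cell surface. The need of the *H2-M* heavy chains for these genes was not tested. All 13 measured genes of class I assembly were well above background on all arrays, and 0 passed the threshold of limma, with 0 higher and 4 lower at an unadjusted P under 0.05. With the filter on dim probes 1 was called higher and 5 lower, and with an eBayes trend 0 and 4. Over all genes, the filter called 3445 higher and 3706 lower of 29495, and the trend 3612 and 3518 of 45604. The log2 differences of the 13 assembly genes were -0.47 to 0.27, with a median of -0.19. *B2m*, which encodes β2-microglobulin, had 22311 and 20945 in young adult mice and 18054 and 16062 in aged mice (-0.34, FDR = 0.350). Both aged samples of *B2m* were lower than both young adult samples, opposite to *H2-M10.3*. The chaperone genes *Canx* (-0.03, FDR = 0.887) and *Calr* (-0.14, FDR = 0.626) did not pass the test.

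Of 19 measured class I heavy chain genes outside the family, 0 passed the threshold of limma, with 0 higher and 4 lower at an unadjusted P under 0.05. With the filter on dim probes 0 of 17 were called higher and 6 lower, and with an eBayes trend 1 and 10 of 19. Over all genes, the filter called 3445 higher and 3706 lower of 29495, and the trend 3612 and 3518 of 45604. The median log2 difference of the 19 heavy chain genes was -0.18. In 15 of the 16 that were well above background on all arrays both aged samples were lower, and in *H2-Q4* both were higher. Among all genes detected on all 4 arrays, 25.6% had both aged samples lower and 31.6% had both higher. The classical gene *H2-K1* had 18978 and 18727 against 17572 and 15844 (-0.18, FDR = 0.534). The nonclassical *H2-T23*, which encodes Qa-1, had a difference of -0.27 (FDR = 0.350), and *H2-Q4* had 0.21 (FDR = 0.542). *H2-M3*, which presents formylated peptides and lies outside the vomeronasal group, had 318 and 326 against 288 and 287 (-0.16, FDR = 0.490). *H2-M5* passed the detection flag on no array, with 18.3 to 21.9, and *H2-M2* was not matched to a probe. *H2-Bl*, singled out after its values were seen as the point at 1.57 (FDR = 0.544), had 40.4 and 8.75 against 50.3 and 62.0 and was well above background on 1 array.

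**Figure D4:**
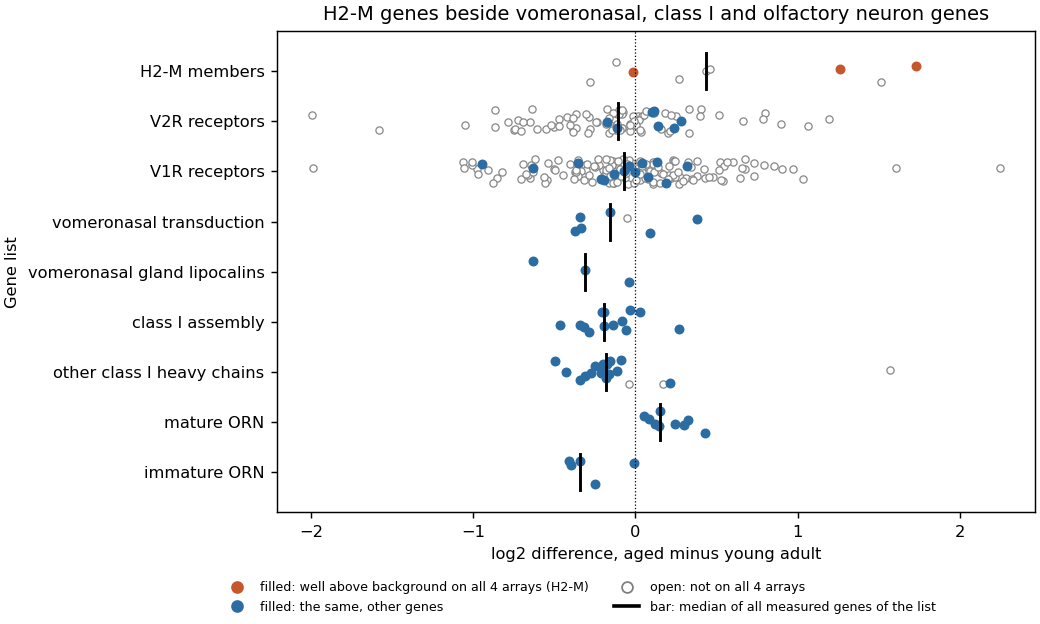
Log2 difference between aged and young adult mice for each measured gene, with 1 line per gene list (ORN, olfactory receptor neuron). Filled points were well above background on all 4 arrays, open points were not, and bars are medians. *H2-M10.3* and *H2-M10.6* lie at 1.73 and 1.26, and the 13 class I assembly genes lie between -0.47 and 0.27.

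In the order of genes along chromosome 17, no other measured gene lay between the 9 *H2-M* genes. Of the 10 measured genes on each side, 13 of 20 were well above background on all arrays, with log2 differences of -0.25 to 0.31. By limma 0 of these 20 genes were called, and 3 had an unadjusted P under 0.05. The neighbours next to the cluster, *Trim39* (0.12, FDR = 0.621) and *Trim26* (0.14, FDR = 0.523), both encode tripartite motif proteins. *H2-M10.2* and *H2-M10.6* lay at the ends of the cluster and *H2-M10.3* within it, with *H2-M11* between *H2-M10.4* and *H2-M9*, so the 3 genes with the larger differences were not next to each other.

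**Figure D5:**
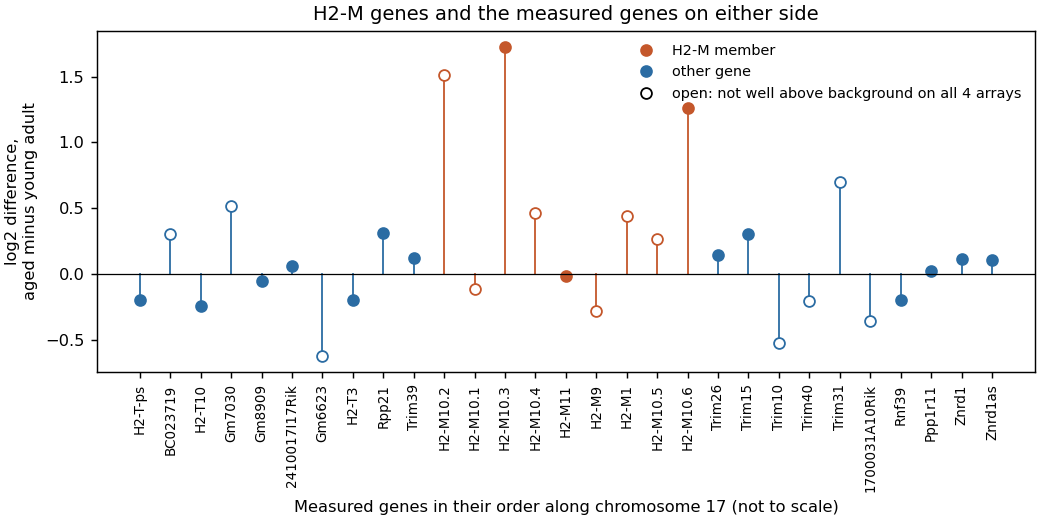
Log2 difference between aged and young adult mice for the 9 *H2-M* genes and the 10 measured genes on either side, in their order along chromosome 17 and not to scale. Filled points were well above background on all 4 arrays. *H2-M10.3*, *H2-M10.2* and *H2-M10.6* stand at 1.73, 1.51 and 1.26, and the filled points of the flanking genes lie between -0.25 and 0.31.

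The genes whose pattern over the 4 arrays was most like that of *H2-M10.3* were found by the root mean square distance between log2 profiles, each centred on its own mean, among 26726 other genes. *Olfr1508* (distance 0.03), an olfactory receptor gene, was the nearest, with 150 and 149 in young adult mice and 499 and 517 in aged mice. *Nppc* (0.04), which encodes C-type natriuretic peptide, followed with 131 and 138 against 441 and 466. A further olfactory receptor gene, *Olfr5* (0.07), was the fourth, with 135 and 125 against 379 and 421, and the remaining 2 of the 5 nearest were probes with no gene name here. *H2-M10.6* ranked 47th by this distance and *H2-M11* ranked 17064th. For the mean profile of the 3 detected *H2-M* genes, the nearest named genes were *Cfi* (complement factor I, 0.01), *Kcnj5* (a G protein-gated potassium channel, 0.02), *BC098222* (0.02) and *Unc80* (a subunit of the sodium leak channel complex, 0.03), with log2 differences of 0.94 to 0.99. That mean joins genes with log2 differences of 1.73, 1.26 and -0.02, so it is the profile of none of them. The profiles also hold the contrast that chose the family. With 4 arrays, such likeness describes these samples only.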

How the data were processed

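RNA of 4 pools, each of 5 mice, was hybridised to Agilent SurePrint G3 Mouse GE 8 × 60K arrays in one colour (Cy3). The deposited files hold spot intensity on a linear scale, not normalized, extracted by the authors with Feature Extraction 11.0.1.1, and the deposited series table equals the processed signal of all 62976 spots on each array (relative tolerance 1e-06, column medians 141 to 161). The submitters' processing notes also name R 3.2.1. A label about silica and lung, at odds with the other labels, was not used.

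In R 4.3.3 with limma 3.58.1, the spot signal was background corrected by normexp (offset 0), quantile normalized and taken to log2, without control spots and spots flagged as outliers. Spots of one probe and probes of one gene were averaged, and 12 genes without a value on every array were left out. The normalized intensity printed is 2 to the power of this log2 value, in arbitrary units; a difference is aged minus young adult on the log2 scale. Accessions were named through RefSeq, and 58.3% of probes had a symbol, while the others were counted under their accession. Genes outside the family were compared by lmFit and eBayes with 2 residual degrees of freedom, at an unadjusted P under 0.05 and a Benjamini-Hochberg FDR under 0.25, two-sided, as in the study's methods. The study's further limits, a mean level of at least 100 and a fold of at least 1.5, were not applied; of the 10 list genes called, *Lcn4* and *Cd68* meet both. The number of arrays limits the precision.

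The family members and the gene lists were chosen with earlier results of these data known. The text names all 9 members, from each list the 3 genes with the highest mean level and up to 4 called genes with the largest difference, the 5 nearest profiles, and *H2-M2*, *H2-M3* and *H2-M5*. *Gnao1*, *Gng8*, *Kcnn3*, *H2-Bl*, *Trim26* and *Trim39* were named outside this rule, after their values were seen. Promoter windows were aligned with Biopython 1.88 (match 1, mismatch -1, gap open -2, gap extension -0.5). Alternatives changed the background correction, signal, scaling, flagged spots, dim probes, probe choice, eBayes trend, block, slide and replicates. The script was tested on simulated data.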

Additional observations from a re-analysis of the deposited data

How the results depend on the processing

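The directions of *H2-M10.2*, *H2-M10.3* and *H2-M10.6* held in all 16 alternatives run for them, but several of these could hardly change them. Each gene has 1 probe, so the most intense probe and the filter on dim probes return the reported value. The block does so too, because the layout is balanced. *H2-M10.2* passed the filter on dim probes only through its 2 aged arrays, where it was high. Both aged arrays lay above both young adult arrays, so the shared slide alone or a replicate left out leaves little room for another sign. The median over the 9 *H2-M* genes (0.44 as reported) was 0.24 with an offset of 16, 0.12 with an offset of 50, 0.19 without background correction, 0.58 with the processed signal at the 75th percentile and 0.51 on one slide, and 0.41 to 0.46 with each replicate left out. It has no value with the filter on dim probes, which removed 5 of the 9 genes.

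Counts of called genes moved more. The V2R count of 1 was 0 with the processed signal at the 75th percentile and with 75th percentile scaling, and 2, both lower, with cyclic loess, with the most intense probe and with an eBayes trend. With the processed signal after quantile normalization it was 1, but higher in place of lower. The V1R count of 5 was 0 with both 75th percentile settings, 3 with the processed signal after quantile normalization and 2 with the filter on dim probes. For the remaining lists, the transduction count of 0 was 2 with an offset of 16 or 50, without background correction and with the filter on dim probes, 3 with the processed signal after quantile normalization and 4 with the trend. The class I assembly count of 0 was 1 with an offset of 16, the processed signal at the 75th percentile or the most intense probe, 3 with an offset of 50 or the processed signal after quantile normalization, 2 without background correction, 6 with the filter on dim probes and 4 with the trend. The count of other class I heavy chains, 0 as reported, was 2 with an offset of 16 or the processed signal after quantile normalization, 4 with an offset of 50 or without background correction, 6 with the filter on dim probes and 11 with the trend. The added calls were all lower in aged mice, except 1 transduction gene and 1 heavy chain higher with the trend and 1 assembly gene higher with the filter on dim probes. Over all 45604 genes, 754 higher and 1063 lower calls became 2107 and 2475 with an offset of 50. They were 3612 and 3518 with the trend, and 3445 and 3706 of 29495 genes with the filter on dim probes. The cause was not tested.

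With each replicate left out in turn, where the lone sample is assumed to vary like the other group, 0 of all genes were called (smallest FDR = 0.408 to 0.677), and these fits do not bear on any single list. The replicate numbers of the labels do not pair the samples (correlation of deviations across genes -0.08). With the replicate number as a block, 0 V2Rs, 0 V1Rs and 0 of all genes were called (smallest FDR = 0.433). Each replicate number holds an array of each age, so this block cannot move the *H2-M* differences. Signal over background limits the 5 *H2-M* genes that were dim on most arrays, for which no difference can be given with confidence.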
